A study of Homo sapiens with 16 samples.

Results

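NPAT siRNA with TGFb was examined in PANC-1 cells, an established human pancreatic carcinoma line, by comparing the 2 libraries of cells given NPAT siRNA and TGFb with the 2 libraries of non-transfected cells given TGFb. These 4 of the series' 16 libraries were chosen by their labels alone, and the comparison was made over all 17743 genes with enough counts to test. The series holds 8 groups of 2 libraries: cells with FLASH, NPAT or SLBP siRNA and cells with none, each either left untreated or given 100 ng/ml TGFb for 48 h. Its stated purpose was to ask what these 3 genes do in the epithelial to mesenchymal transition. The labels' word for the non-transfected cells is Mock, they do not say whether transfection reagent was added, and none of the 16 libraries was labelled as a non-targeting siRNA. The sample titles give day 3, whereas the design text places the RNA measurement 4 days after transfection. Nothing in the labels says that replicates came from separate cultures, so p-values measure the spread between these libraries, which may be technical.

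NPAT is a nuclear coactivator that gathers at histone locus bodies, the sites beside the histone gene clusters where replication-dependent histone genes are transcribed in S phase, and it is a substrate of cyclin E with CDK2. The transcripts of those genes normally end in a stem-loop in place of a poly(A) tail: the stem-loop is bound by SLBP, and FLASH, the product of CASP8AP2, is needed for the cut that forms the end. TGFb is a secreted factor that drives the epithelial to mesenchymal transition in many carcinoma cells, in which junction genes such as CDH1 fall and matrix and motility genes rise. The libraries were made from poly(A) RNA, so for replication-dependent histone genes the values count polyadenylated transcripts.

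NPAT lies on chromosome 11 at 108157215-108222642 on the minus strand (GRCh38, GENCODE release 29), head to head with ATM, the kinase that signals DNA double-strand breaks. Their RefSeq windows, the 250 bases before each gene's start in GRCh38.p14, are printed because a shared promoter region joins the silenced gene to its neighbour. The NPAT window is chr11:108222639-108222888 on the minus strand and the ATM window chr11:108222817-108223066 on the plus strand. Each is written 5′ to 3′ on its own gene's strand, with the 72 bases that both windows hold in capitals. The starts are 429 bases apart.
NPAT: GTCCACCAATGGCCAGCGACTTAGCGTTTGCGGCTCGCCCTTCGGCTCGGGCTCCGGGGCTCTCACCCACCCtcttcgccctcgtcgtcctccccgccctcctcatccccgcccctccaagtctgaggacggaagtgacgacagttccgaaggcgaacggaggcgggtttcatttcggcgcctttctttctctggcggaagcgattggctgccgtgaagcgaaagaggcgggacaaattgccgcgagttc
ATM: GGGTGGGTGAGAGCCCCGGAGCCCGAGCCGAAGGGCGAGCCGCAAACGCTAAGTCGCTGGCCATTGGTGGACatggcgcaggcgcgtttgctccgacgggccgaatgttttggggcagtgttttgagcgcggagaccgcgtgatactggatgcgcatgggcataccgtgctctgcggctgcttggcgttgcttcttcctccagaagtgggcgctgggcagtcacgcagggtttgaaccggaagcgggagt

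NPAT was at 47.0 and 54.1 CPM (the count scaled to a common library total, with TMM factors) in the 2 non-transfected libraries with TGFb and at 7.69 and 5.18 CPM in the 2 NPAT siRNA libraries with TGFb. The siRNA libraries were far below every other group given TGFb: NPAT was at 49.5 and 45.7 CPM with FLASH siRNA and at 42.6 and 40.9 CPM with SLBP siRNA. The log2 fold change against non-transfected cells was -2.98 (SE 0.165, edgeR adjusted p = 2.47e-06), which left 12.7% of the control level. Without TGFb the siRNA left NPAT at 5.39 and 5.51 CPM, against 53.4 and 48.9 CPM in non-transfected cells, so both siRNA groups sat at a like low level. ATM was at 219.7 and 224 CPM without and 183 and 187 CPM with the siRNA, a log2 fold change of -0.26 that did not pass the test (edgeR adjusted p = 0.168). Exons of NPAT and ATM overlap on opposite strands, and the sources used here do not say whether the counting used strand. The other genes the study silenced did not pass either: CASP8AP2 had a log2 fold change of -0.45 and SLBP of -0.12 (edgeR adjusted p = 0.062 and 0.454), although CASP8AP2 passed without a filter (edgeR adjusted p = 0.0179) and from the groups compared alone (adjusted p = 0.0344), with adjusted p from 0.0145 to 0.270 over all alternatives.

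With TGFb present, 4271 of the 17743 tested genes (24.1%) differed between NPAT siRNA and non-transfected cells at an adjusted p under 0.05 (edgeR's quasi-likelihood test, Benjamini-Hochberg adjustment over all tested genes). Of these, 2436 (13.7%) were higher and 1835 (10.3%) were lower, and the median over all tested genes was 0.0166 on the log2 scale. These shares are the background for all list counts against non-transfected cells with TGFb below. The control level of genes that rose had a median of 2.21 CPM, and their median log2 fold change was 1.35. The control level of genes that fell had a median of 46.6 CPM, and their median change was -0.56. Genes of low control level were tested only where another group was high enough to pass the filter, which favours rises among them. At least 4-fold changes were found for 844 genes that rose and for 24 that fell. Among the 13859 genes with a mean of at least 1 CPM, 1714 (12.4%) rose and 1790 (12.9%) fell. That mean, used for the lists below as well, is over the 4 libraries compared. Genes near silent in control cells thus passed it only where the siRNA libraries were higher. The share of protein-coding genes that rose was 15.6%, and 11.3% fell. The siRNA and control libraries did not overlap in 11779 of the 17743 tested genes (66.4%), called or not. Libraries of a named gene that stand apart are therefore common here.

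The 4 libraries held 25376489 to 30832499 counts each. Genes with a count numbered 21130 and 21336 in the control libraries and 22746 and 23286 in the siRNA libraries, and mitochondrial transcripts took 9.34% and 6.96% against 10.8% and 10.0% of counts. With mitochondrial genes left out of the totals, 4252 genes were called. The number of calls rested on single libraries: it was 1553 without non-transfected + TGFb replicate 2, 2564 without replicate 1 of that group and 1657 without NPAT siRNA + TGFb replicate 2. Genes named below as changed kept their call in each of these fits unless stated otherwise.

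**Figure D1:**
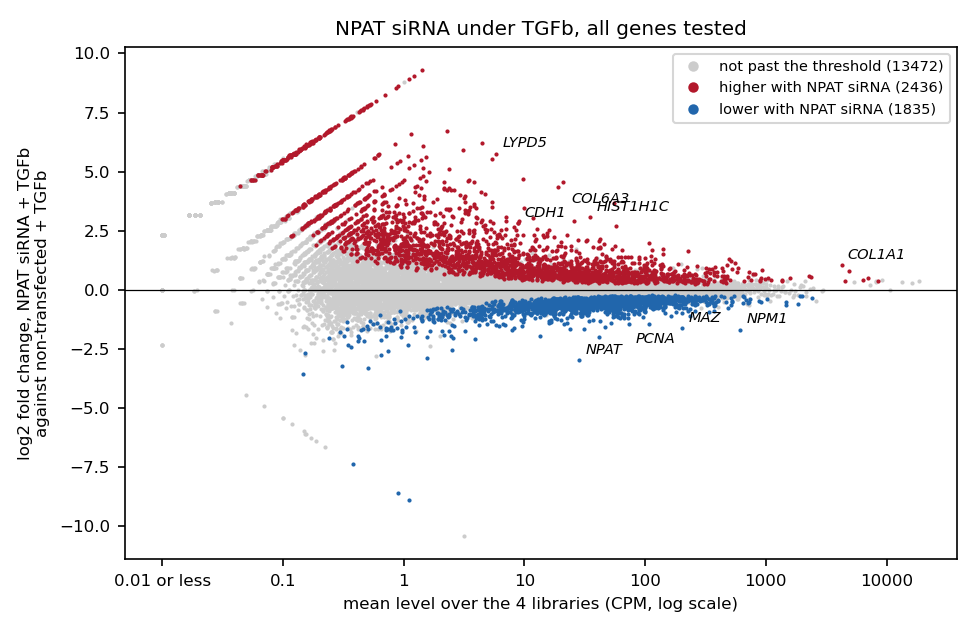
Log2 fold change (NPAT siRNA with TGFb over non-transfected with TGFb, vertical axis) against the mean CPM of the 4 libraries, 1 point per tested gene. The horizontal axis is on a log scale, with the lowest levels set to a floor. Of the points, 2436 are marked as higher, 1835 as lower and 13472 as not past the threshold, and the largest rises lie at the left, among genes of low level.

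Among the highest changes were genes nearly silent in the control cells. LYPD5, a GPI-anchored surface protein gene, was at 0.0396 and 0.359 CPM in control libraries and 11.8 and 11.1 CPM in siRNA libraries. PRSS8, the membrane serine protease prostasin, went from 0.119 and 0.108 to 8.36 and 9.23 CPM, and MMP1, a collagenase, from 0.277 and 0.180 to 12.0 and 9.13 CPM. In these 3 genes both siRNA libraries stood far above both control libraries. The log2 fold changes were 5.76 for LYPD5, 6.22 for PRSS8 and 5.51 for MMP1 (SE 0.523, 0.433 and 0.746; edgeR adjusted p = 3.82e-05, 6.22e-06 and 0.000498). Exons of MMP1 overlap those of WTAPP1, so their reads may not be separable. Not every gene named below with such an overlap is marked.

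Strong falls were found in genes of moderate to high level. NPM1, an abundant nucleolar histone chaperone, was at 1005 and 857 CPM in control cells and 353 and 227 CPM with NPAT siRNA, against 732 and 705 CPM with FLASH siRNA and 858 and 724 CPM with SLBP siRNA. MAZ, a zinc finger transcription factor gene with exons that overlap a neighbour, was at 289 and 323 CPM and 109.7 and 87.9 CPM. In both genes the NPAT siRNA libraries were the lowest of the 8 libraries given TGFb. The log2 fold changes were -1.68 for NPM1 and -1.63 for MAZ (SE 0.234 and 0.123; edgeR adjusted p = 0.000562 and 1.04e-05). ZNF420, a KRAB zinc finger gene, was at 20.01 and 22.7 CPM and fell to 5.67 and 5.38 CPM. GXYLT1, which adds xylose to Notch, went from 46.4 and 48.0 to 17.2 and 12.5 CPM, while it stood at 59.1 and 68.2 CPM with FLASH siRNA and 81.7 and 91.9 CPM with SLBP siRNA.

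**Figure D2:**
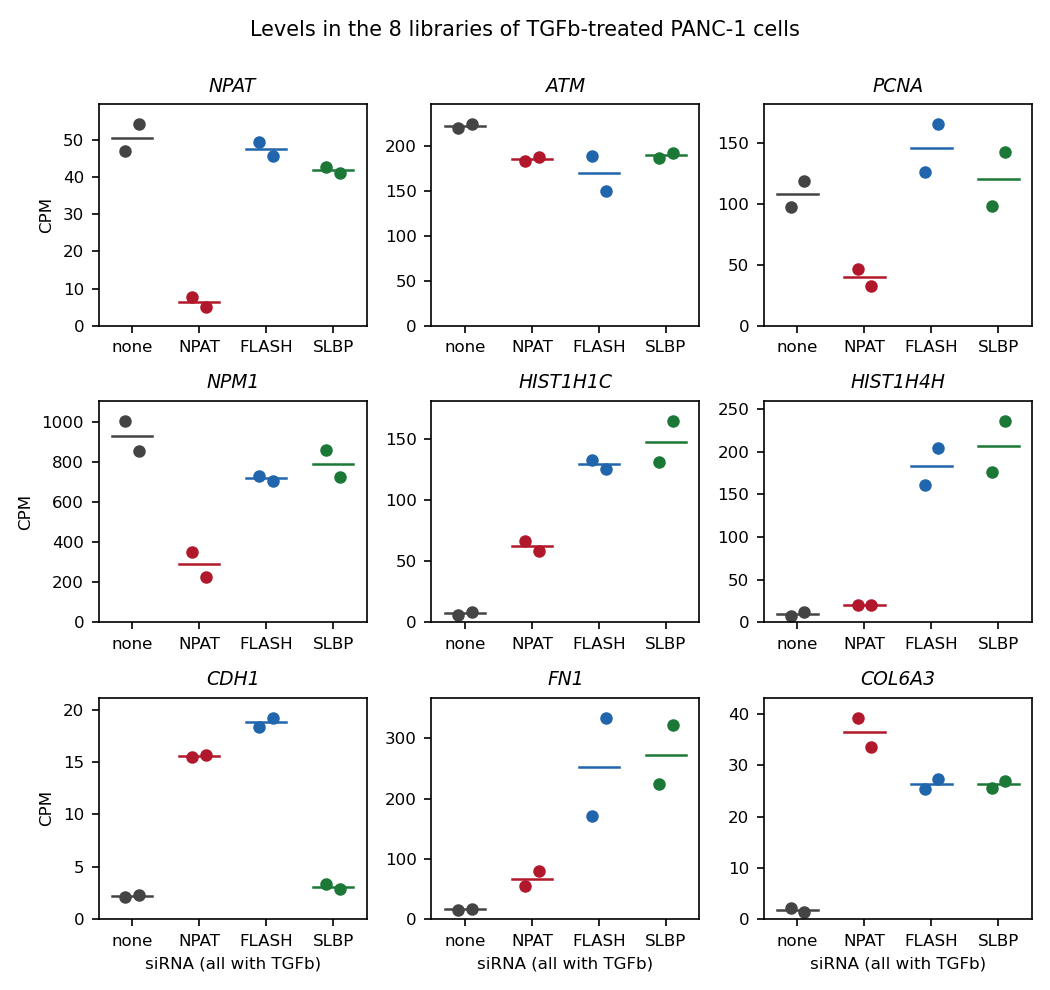
Levels in CPM of 9 genes in each of the 8 libraries given TGFb (points; bars give the group mean of 2 libraries). NPAT, PCNA and NPM1 are lowest with NPAT siRNA, CDH1 is high with NPAT and FLASH siRNA, and HIST1H4H is far higher with FLASH and SLBP siRNA than with NPAT siRNA.

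Of 72 replication-dependent histone genes in the files, 40 had enough counts to test, and 15 of them were higher with NPAT siRNA (background 13.7%) and 0 lower (background 10.3%). The median log2 fold change of the 40 was 1.03, beside 0.0166 over all genes. Of the 17 with a mean of at least 1 CPM, 10 rose, and leaving out 1 library gave 12 to 14 of the 40. HIST1H1C, which encodes linker histone H1.2, was at 6.42 and 8.41 CPM in control cells and 66.4 and 58.6 CPM with NPAT siRNA. HIST1H2BK, an H2B gene known to yield polyadenylated transcripts, was at 29.6 and 32.1 CPM and 73.8 and 69.8 CPM. HIST1H4H, an H4 gene, was at 7.05 and 12.4 CPM and 20.2 and 20.1 CPM. In these 3 genes both siRNA libraries were above both control libraries. Their log2 fold changes were 3.07, 1.22 and 1.05 (SE 0.229, 0.120 and 0.222; edgeR adjusted p = 9.69e-06, 6.32e-05 and 0.00576). On the authors' per-length scale, TPM, HIST1H2BK stood above HIST1H1C in both groups: HIST1H2BK was at 189.9 and 219.5 TPM in control cells and 447.2 and 442.7 TPM with NPAT siRNA. HIST1H1C was at 18.5 and 26.1 TPM in control cells and 183.4 and 169.7 TPM with the siRNA.

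Abundant histone genes did not all pass the test. HIST1H2AC, an H2A gene, was at 23.7 and 31.5 CPM in control cells and 27.4 and 28.8 CPM with NPAT siRNA, and the groups overlapped. Its log2 fold change was 0.03 (edgeR adjusted p = 0.903). HIST1H2BD, an H2B gene, was at 20.7 and 32.6 CPM and 39.5 and 40.6 CPM, higher in both siRNA libraries, but did not pass (log2 fold change 0.59, edgeR adjusted p = 0.0862). It did pass without a filter, by DESeq2 (adjusted p = 0.0479) and without non-transfected + TGFb replicate 2 (edgeR adjusted p = 0.0465), with adjusted p from 0.000765 to 0.425 over all alternatives. Of the 11 tested replication-independent histone genes, which encode variants not confined to S phase in their making, 1 rose and 1 fell. The one that rose was H1F0, the linker histone of resting cells, at 175 and 166 CPM in control cells and 261 and 248 CPM with the siRNA (log2 fold change 0.58, edgeR adjusted p = 0.00101). H2AFX, whose product is phosphorylated at DNA breaks, was at 52.0 and 65.4 CPM and 44.8 and 45.9 CPM and did not pass (log2 fold change -0.37, edgeR adjusted p = 0.0853).

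Replication-dependent histone genes were lower with NPAT siRNA than with the other siRNAs given with TGFb. Against FLASH siRNA, 0 of 40 were higher (background 4.5%) and 24 were lower (background 9.09%), with a median log2 difference of -1.52. Against SLBP siRNA, 0 were higher (background 5.77%) and 24 were lower (background 6.61%), with a median of -1.75. HIST1H1C was at 133 and 125 CPM with FLASH siRNA and 131 and 164 CPM with SLBP siRNA, above the NPAT siRNA libraries (log2 difference -1.04 and -1.24; edgeR adjusted p = 0.00648 and 0.00245). HIST1H4H was at 161 and 205 CPM and 177 and 236 CPM, several times its level with NPAT siRNA (log2 difference -3.18 and -3.36). HIST1H2AC, which did not pass against control cells, was at 109 and 115 CPM with FLASH siRNA and 215 and 201 CPM with SLBP siRNA (log2 difference -1.997 and -2.89; edgeR adjusted p = 1.24e-05 and 3.16e-07). HIST2H4A, another H4 gene, was at 0.119 and 0.252 CPM in control cells, 0.0414 and 0.0669 CPM with NPAT siRNA, 1.42 and 2.57 CPM with FLASH siRNA and 2.53 and 5.29 CPM with SLBP siRNA. Its levels rest on 10 counts over the control group and 3 over the NPAT siRNA group. Against control cells it did not pass (log2 fold change -1.68, edgeR adjusted p = 0.166). The count of lower histone genes was 10 against FLASH siRNA without FLASH siRNA + TGFb replicate 2, and 12 against SLBP siRNA without NPAT siRNA + TGFb replicate 2.

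The promoters of 3 of these histone genes are printed to set a gene that rose strongly beside one that rose less and one that did not pass. They are the 250 RefSeq bases before each start (GRCh38.p14), written on the gene's strand. Capitals mark matches, on either strand, to ATTTGCAT (the octamer that POU2F1 binds), CCAAT and TATAAA. HIST1H1C (H1-2 in RefSeq; chr6:26056471-26056720, minus strand) had 1 match, to CCAAT, and HIST1H2BK (H2BC12; chr6:27146859-27147108, minus strand) had 10, some of which overlap. HIST1H2AC (H2AC6; chr6:26123922-26124171, plus strand) had 5.
HIST1H1C: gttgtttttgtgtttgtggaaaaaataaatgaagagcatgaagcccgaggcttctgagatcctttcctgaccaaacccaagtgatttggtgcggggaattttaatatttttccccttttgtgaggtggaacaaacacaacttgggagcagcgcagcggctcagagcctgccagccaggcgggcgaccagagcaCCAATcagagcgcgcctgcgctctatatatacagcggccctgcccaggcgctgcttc
HIST1H2BK: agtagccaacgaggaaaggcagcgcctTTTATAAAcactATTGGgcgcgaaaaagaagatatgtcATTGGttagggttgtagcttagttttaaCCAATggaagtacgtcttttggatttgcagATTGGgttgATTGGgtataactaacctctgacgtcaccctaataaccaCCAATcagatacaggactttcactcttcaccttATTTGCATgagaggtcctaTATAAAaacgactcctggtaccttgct
HIST1H2AC: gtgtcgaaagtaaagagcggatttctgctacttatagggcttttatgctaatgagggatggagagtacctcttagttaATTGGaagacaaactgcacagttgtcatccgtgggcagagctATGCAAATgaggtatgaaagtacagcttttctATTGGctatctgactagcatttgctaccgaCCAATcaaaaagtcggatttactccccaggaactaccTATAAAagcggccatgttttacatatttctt

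Over the whole list, 34 of the 40 tested histone genes were matched to RefSeq, with 39 windows. CCAAT was found in 34 windows (87.2%, beside 32% of all 35116 windows), TATAAA in 22 (56.4% beside 10.7%) and the octamer in 13 (33.3% beside 1.63%). An E2F-type motif, TTTCCCGC or TTTGGCGC on either strand, was found in 0 of the 39 and in 1.93% of all windows.

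**Figure D3:**
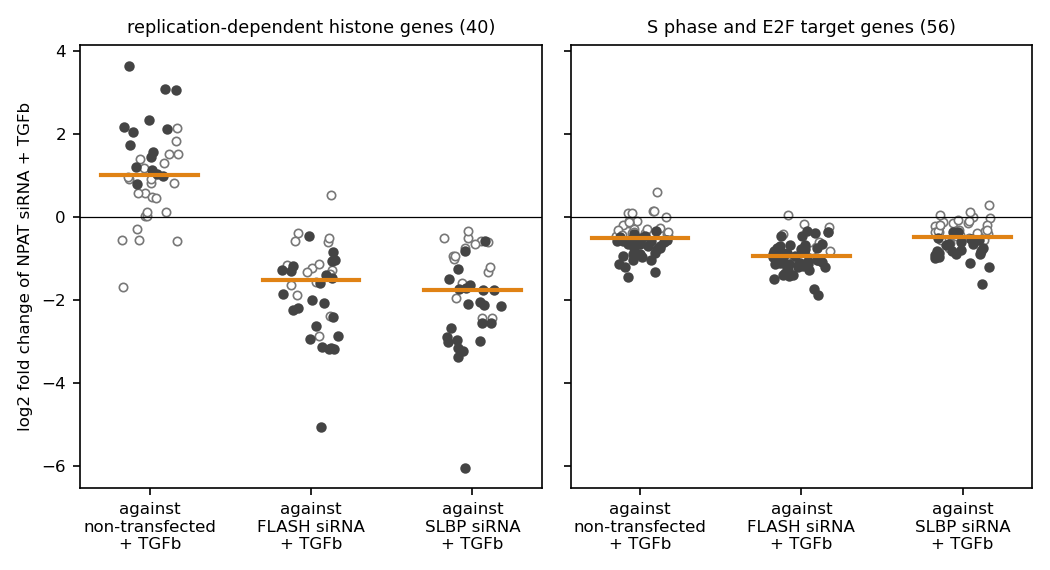
Log2 differences of NPAT siRNA with TGFb against non-transfected cells, FLASH siRNA and SLBP siRNA, all with TGFb, for 40 replication-dependent histone genes and 56 S phase genes (1 point per gene; filled points passed the test, and the orange line is the median). Most histone genes lie above 0 against non-transfected cells (median 1.03) and all or all but 1 below 0 against FLASH (-1.52) and SLBP siRNA (-1.75), whereas S phase genes have a median below 0 in each comparison.

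Genes of the histone locus body and of histone transcript processing fell or did not pass. Of 35 tested, 14 were lower and 0 higher, with a median log2 fold change of -0.35. NPAT itself was one of the 14. SNRPE, which encodes a core protein of the spliceosomal snRNPs, was at 62.7 and 57.1 CPM in control cells and 27.7 and 20.2 CPM with the siRNA, and POU2F1, which encodes the octamer-binding factor OCT1, at 71.8 and 73.0 CPM and 43.0 and 36.2 CPM. Both siRNA libraries were below both controls for each (log2 fold change -1.33 and -0.87; edgeR adjusted p = 0.000201 and 0.000394). Of 22 histone chaperone genes, 5 fell, NPM1 among them (1 without either replicate 2), and 1 rose: NAP1L1, an H2A-H2B chaperone, was at 411 and 396 CPM in control cells and 715 and 835 CPM with the siRNA (log2 fold change 0.94). The 14 became 5 when either non-transfected + TGFb replicate 2 or NPAT siRNA + TGFb replicate 2 was left out.

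S phase genes were lower as a group. Of 56 tested genes of DNA replication and known E2F targets, 31 fell and 0 rose, and the median log2 fold change was -0.50. PCNA, the sliding clamp of DNA polymerases, was at 97.2 and 119 CPM in control cells and 46.9 and 32.7 CPM with NPAT siRNA (log2 fold change -1.44, SE 0.202, edgeR adjusted p = 0.000581). TIPIN, a replication fork protection factor, was at 23.2 and 22.6 CPM and 11.4 and 7.12 CPM. POLE2, a subunit of the leading-strand polymerase, was at 10.3 and 11.2 CPM and 5.00 and 4.41 CPM. All siRNA libraries were below all control libraries for these 3 genes. MCM6, a subunit of the replicative helicase that was named after its values were seen and not refitted with libraries left out, was at 75.3 and 83.9 CPM and 42.9 and 38.4 CPM (log2 fold change -0.97), and CLSPN, which links stalled forks to CHK1, had a log2 fold change of -0.94. In bulk RNA, fewer cells in S phase and less RNA of these genes per cell cannot be told apart.

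PCNA was also lower than with the other siRNAs: it was at 126 and 165 CPM with FLASH siRNA and 98.3 and 143 CPM with SLBP siRNA (log2 difference -1.87 and -1.60; edgeR adjusted p = 0.000454 and 0.000535). Against FLASH siRNA 46 of the 56 S phase genes were lower (background 9.09%) and 0 higher (background 4.5%), with a median of -0.94. Against SLBP siRNA 24 were lower (background 6.61%) and 0 higher (background 5.77%), with a median of -0.48. The genes lower than in each of the 3 other TGFb groups numbered 18 of 56, beside 1.38% of all genes. Without NPAT siRNA + TGFb replicate 2, the number that fell was 10 against non-transfected cells, 20 against FLASH siRNA and 5 against SLBP siRNA. It was 13 against non-transfected cells without non-transfected + TGFb replicate 2.

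The windows of PCNA (chr20:5126623-5126872, minus strand) and MCM6 (chr2:135876444-135876693, minus strand) are printed as examples of S phase promoters. Capitals mark the E2F-type motif, which is found once in PCNA, on the opposite strand, and at 2 places in MCM6.
PCNA: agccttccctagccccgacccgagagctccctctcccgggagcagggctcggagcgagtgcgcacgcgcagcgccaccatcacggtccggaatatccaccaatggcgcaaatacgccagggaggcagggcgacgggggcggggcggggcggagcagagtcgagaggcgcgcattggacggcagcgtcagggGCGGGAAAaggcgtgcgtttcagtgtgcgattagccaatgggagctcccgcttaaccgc
MCM6: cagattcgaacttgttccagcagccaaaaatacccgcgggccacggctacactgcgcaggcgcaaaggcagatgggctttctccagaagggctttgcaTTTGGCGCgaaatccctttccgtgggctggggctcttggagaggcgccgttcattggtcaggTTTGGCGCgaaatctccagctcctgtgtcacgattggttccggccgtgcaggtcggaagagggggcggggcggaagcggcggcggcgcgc
Of the 56 genes, some of which were listed because E2F factors are known to control them, 46 were matched to RefSeq, with 63 windows. The E2F-type motif was in 17 of these (27%, beside 1.93% of all windows), CCAAT in 34 (54%), TATAAA in 3 (4.76%) and the octamer in 1 (1.59%).

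Genes of G2 and mitosis and of DNA repair changed in part, beside 13.7% higher and 10.3% lower over all tested genes. Of 42 tested genes of G2 and mitosis, 11 fell and 1 rose, with a median log2 fold change of -0.37. HMMR, a spindle-associated hyaluronan receptor, was at 32.9 and 32.0 CPM in control cells and 19.8 and 10.8 CPM with the siRNA, and CKS2, a CDK-binding subunit, at 45.9 and 56.9 CPM and 28.0 and 28.7 CPM. Both genes were lower in both siRNA libraries (log2 fold change -1.09 and -0.86). Of 35 DNA damage and repair genes, 11 fell and 1 rose, among them XRCC2, a homologous recombination factor, at 36.6 and 43.6 CPM and 23.4 and 17.6 CPM, and MMS22L, a fork repair factor, with a log2 fold change of -0.81. With either replicate 2 left out, that of NPAT siRNA + TGFb or that of the non-transfected cells, 3 genes of G2 and mitosis and 2 of DNA repair fell. Without replicate 1 of NPAT siRNA + TGFb, 22 genes of G2 and mitosis fell, and without that of the non-transfected cells 5 did. Among 27 targets of p53, a tumour suppressor that is mutated in this line, 7 rose and 2 fell. CCNG1, cyclin G1, was at 34.0 and 32.9 CPM and 63.6 and 81.1 CPM. TP53I3, an oxidoreductase gene, was at 52.3 and 50.0 CPM and 118 and 133 CPM. In both genes both siRNA libraries were higher (log2 fold change 1.11 and 1.297). Exons of TP53I3 overlap on the opposite strand those of FAM228B, which had a mean of 20.6 CPM over the 4 libraries. With any 1 of the 4 libraries left out, 3 or 4 of the 27 rose.

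Several other lists held more falls than rises (background 13.7% higher and 10.3% lower). Of 460 tested zinc finger (ZNF) genes, 104 fell and 10 rose, with a median log2 fold change of -0.23. Of 42 nucleolar genes 16 fell and 0 rose, with a median of -0.31. Of 79 nuclear genes of the respiratory chain 16 fell and 1 rose, whereas of the 13 tested mitochondrially encoded transcripts 4 rose and 0 fell. NDUFC1, a complex I subunit gene in the nucleus, was at 28.7 and 33.5 CPM and 12.6 and 10.4 CPM. MT-ND5, a complex I subunit gene in the mitochondrial genome, was at 3949 and 3126 CPM and 5898 and 6486 CPM. The NDUFC1 siRNA libraries were below and the MT-ND5 siRNA libraries above both controls (log2 fold change -1.44 and 0.81). These counts were smaller with a library left out: 25 ZNF genes fell without NPAT siRNA + TGFb replicate 2, 1 nucleolar gene fell without non-transfected + TGFb replicate 2 (at most 5 without any other library), and 2 nuclear genes of the respiratory chain fell without NPAT siRNA + TGFb replicate 2. Of the mitochondrially encoded transcripts 8 rose without non-transfected + TGFb replicate 1, and 1 without either replicate 2. Of 82 ribosomal protein genes 3 rose and 1 fell, and of 30 polycomb and DNA methyltransferase genes 0 rose and 8 fell (2 fell without NPAT siRNA + TGFb replicate 2).

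Epithelial genes were higher with NPAT siRNA in cells given TGFb, and also in cells without it. Without TGFb, 29 of the 49 tested rose (background 18.9%) and 0 fell (background 13.3%), with a median log2 fold change of 0.99. In the test of the difference between the 2 conditions, 0 of the 49 passed. The counts with TGFb follow. Of 49 tested epithelial genes (52 in the files), 27 rose and 0 fell, with a median log2 fold change of 0.93, and 19 of the 41 with a mean of at least 1 CPM rose. CDH1, which encodes E-cadherin of the adherens junction, was at 2.14 and 2.26 CPM in control cells and 15.5 and 15.6 CPM with NPAT siRNA (log2 fold change 2.82, SE 0.205, edgeR adjusted p = 9.69e-06). ST14, which encodes the protease matriptase, was at 1.98 and 1.33 CPM and 19.7 and 16.5 CPM. CRB3, an apical polarity gene, had no count in either control library and was at 0.620 and 0.735 CPM with the siRNA, at least 12.1-fold higher against a floor of 3 counts over the control group. All of these siRNA libraries stood above the controls. Without non-transfected + TGFb replicate 2, 14 epithelial genes rose.

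CDH1 differed among the siRNAs given with TGFb. It was at 18.4 and 19.2 CPM with FLASH siRNA, for which the log2 difference of NPAT siRNA was -0.27 (SE 0.177, edgeR adjusted p = 0.337), and at 3.36 and 2.85 CPM with SLBP siRNA, for which it was 2.32 (SE 0.198, edgeR adjusted p = 4.80e-05). Over the list, 1 of 49 was higher (background 4.5%) and 17 lower (background 9.09%) than with FLASH siRNA. Against SLBP siRNA 4 were higher (background 5.77%) and 4 lower (background 6.61%), near the shares of all genes. Without FLASH siRNA + TGFb replicate 2, 3 were lower than with FLASH siRNA. Of 19 tested keratin genes (55 in the files), 6 rose and 0 fell. KRT81, a hair keratin gene, went from 0.634 and 0.826 to 20.6 and 17.0 CPM and KRT17, a basal keratin gene, from 0.951 and 0.575 to 12.5 and 7.49 CPM, so both were near silent in control cells. The abundant simple-epithelium keratins KRT8 and KRT18 had log2 fold changes of 0.14 and 0.15 and did not pass (edgeR adjusted p = 0.618 and 0.313). ERBB3, a receptor of neuregulins, went from 1.59 and 1.37 to 12.0 and 13.1 CPM. Of 13 tested secretory and mucin genes (30 in the files), 6 rose and 0 fell. Without non-transfected + TGFb replicate 2, 2 keratin genes and 1 secretory gene rose.

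Mesenchymal genes were higher as well. Of 49 tested, 28 rose and 0 fell, with a median log2 fold change of 0.94 (0.92 with genes silent in control cells set at their bound), and 24 of the 41 with a mean of at least 1 CPM rose. FN1, which encodes fibronectin, was at 15.1 and 16.8 CPM in control cells and 54.1 and 80.2 CPM with NPAT siRNA (log2 fold change 2.07, SE 0.349, edgeR adjusted p = 0.00165). With FLASH siRNA it was at 171 and 335 CPM and with SLBP siRNA at 224 and 323 CPM, higher than with NPAT siRNA (log2 difference -1.91 and -2.02; edgeR adjusted p = 0.00409 and 0.00259). THY1, a surface glycoprotein of fibroblasts, went from 5.79 and 6.25 to 41.5 and 50.4 CPM. VIM, which encodes vimentin, was at 3236 and 2811 CPM and 3155 and 2769 CPM, and the groups overlapped (log2 fold change -0.03, edgeR adjusted p = 0.888). CDH2, which encodes N-cadherin, had a log2 fold change of 0.49 and did not pass (edgeR adjusted p = 0.0532), although both siRNA libraries were above both controls and it passed without a filter, with a 1 CPM minimum, from the groups compared alone and by DESeq2 (adjusted p = 0.0293; 0.00421 to 0.272 over all alternatives). Without non-transfected + TGFb replicate 2, 17 mesenchymal genes rose.

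Few transcription factors of the transition passed the test. Of 21 tested, 2 rose and 1 fell, the median was -0.07, and with 1 library left out 1 rose (without non-transfected + TGFb replicate 2) or 0 (each other library). ZEB1 and ZEB2, repressors of CDH1, had log2 fold changes of -0.33 and 0.34 (edgeR adjusted p = 0.0544 and 0.198), and ZEB1 passed by DESeq2 (adjusted p = 0.0462; 0.0143 to 0.283 over all alternatives). SNAI1, another repressor of CDH1, was at 36.5 and 48.1 CPM in control cells and 60.7 and 60.5 CPM with the siRNA, above the controls in both libraries (log2 fold change 0.52, edgeR adjusted p = 0.0208), a call lost without NPAT siRNA + TGFb replicate 1, without its replicate 2 and without non-transfected + TGFb replicate 1. SNAI2 did not pass (log2 fold change 1.01, edgeR adjusted p = 0.339). ESRP1, a splicing regulator of epithelial cells, was at 2.34 and 2.37 CPM and 7.53 and 5.05 CPM (log2 fold change 1.41, edgeR adjusted p = 0.0146), a call lost without NPAT siRNA + TGFb replicate 1 and without either non-transfected library.

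Genes of the matrix and of its turnover rose in each list. Of 41 tested collagen genes 20 rose and 0 fell (median log2 fold change 1.11), of 47 matrix glycoprotein and proteoglycan genes 32 rose and 0 fell (1.46), and of 41 genes of metalloproteinases, their inhibitors and matrix crosslinkers 25 rose and 0 fell (0.98, or 0.94 with silent genes at their bound). Among members with a mean of at least 1 CPM, 18 of 32, 27 of 34 and 19 of 31 rose. That mean includes the siRNA libraries, so genes near silent in control cells, such as COL10A1 below, could enter by their rise. COL6A3, a chain of the microfibril collagen VI, was at 2.10 and 1.44 CPM in control cells and 39.3 and 33.6 CPM with the siRNA (log2 fold change 4.37, SE 0.205, edgeR adjusted p = 6.78e-07). COL10A1, a short-chain collagen of growth cartilage, went from 0.159 and 0.0359 to 6.78 and 5.32 CPM, and COMP, a cartilage matrix protein gene, from 2.54 and 2.52 to 22.5 and 19.6 CPM. For each, every siRNA library was many times above both controls. VCAN, a large proteoglycan gene, was at 1.31 and 1.94 CPM and 11.1 and 13.6 CPM, and at 37.9 and 70.3 CPM with FLASH siRNA and 38.1 and 45.7 CPM with SLBP siRNA, so NPAT siRNA was intermediate. COL1A1, the main fibrillar collagen chain, was already at 2559.8 and 3004 CPM in control cells and was at 4972 and 6442 CPM with the siRNA (log2 fold change 1.04, edgeR adjusted p = 0.0493), a call lost when any 1 of the 4 libraries was left out.

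Of the proteases, MMP10, a stromelysin gene, went from 0.436 and 0.503 to 6.33 and 10.2 CPM, and MMP3, another stromelysin, had no count in control libraries and was at 0.786 and 0.735 CPM, at least 13.4-fold higher. LRRC15, a membrane protein of TGFb-treated stromal cells, went from 3.21 and 3.27 to 16.7 and 15.8 CPM. Of 25 integrin genes 10 rose and 0 fell, with a median of 0.59, among them ITGA7, a laminin receptor chain whose exons overlap a neighbour, with a log2 fold change of 1.70. Of 31 contractile genes 8 rose and 4 fell (background 13.7% and 10.3%). Of 39 tested receptor tyrosine kinase and neurotrophin receptor genes 19 rose and 0 fell, with a median of 0.78. NGFR, the low-affinity neurotrophin receptor, was at 2.10 and 1.37 CPM in control cells and 38.3 and 42.4 CPM with the siRNA, and RET, the receptor of GDNF ligands, at 8.24 and 7.94 CPM and 63.2 and 141 CPM. Both were higher in both siRNA libraries, although those for RET stood apart from each other (log2 fold change 4.55 and 3.66; edgeR adjusted p = 1.16e-05 and 0.0033). Without non-transfected + TGFb replicate 2, the counts that rose were 10 collagen, 19 glycoprotein, 13 metalloproteinase and crosslinker, 6 integrin, 1 contractile and 10 receptor genes. Without NPAT siRNA + TGFb replicate 2 they were 12, 20, 20, 6, 3 and 10 in the same order.

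Markers of other cell types, several of which are matrix genes of the lists above, moved with these groups only in part. The summed endothelial level overlapped between the groups, and no acinar marker passed. Of 11 tested stellate cell and fibroblast markers 6 rose, and their summed level was 2580 and 3020 CPM in control cells and 5040 and 6530 CPM with the siRNA, most of it COL1A1, with ASPN at 0. Of 10 pericyte and smooth muscle markers 5 rose, with sums of 409 and 335 CPM against 805 and 816 CPM and KCNJ8 at 0. By TPM most of the sum was MCAM, at 164 and 146 TPM in control cells and 285 and 321 TPM with the siRNA. Of 9 endothelial markers 5 rose, with sums of 57.5 and 61.3 CPM against 58.8 and 53.6 CPM and EMCN at 0. VWF, which encodes the endothelial von Willebrand factor, had no count in control cells and was at 2.52 and 2.31 CPM with the siRNA, at least 42.5-fold higher. Of 7 leukocyte markers 2 rose, with sums of 62.2 and 48.7 CPM against 116 and 81.1 CPM and CD2, CD3E, NKG7 and PTPRC at 0. By TPM most of that sum was CD68, at 73.2 and 55.6 TPM in control cells and 135 and 95.2 TPM with the siRNA. The 8 markers of carcinoma epithelium summed to 836 and 753 CPM against 948 and 921 CPM, and 5 of them rose. Acinar markers summed to at most 2.3 CPM, with 10 of 18 at 0, and endocrine markers to at most 32.1 CPM, with 8 of 16 at 0. Without non-transfected + TGFb replicate 2, 1 stellate cell, 1 endothelial and 3 pericyte markers rose. The part of these markers in the counts was not tested.

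**Figure D4:**
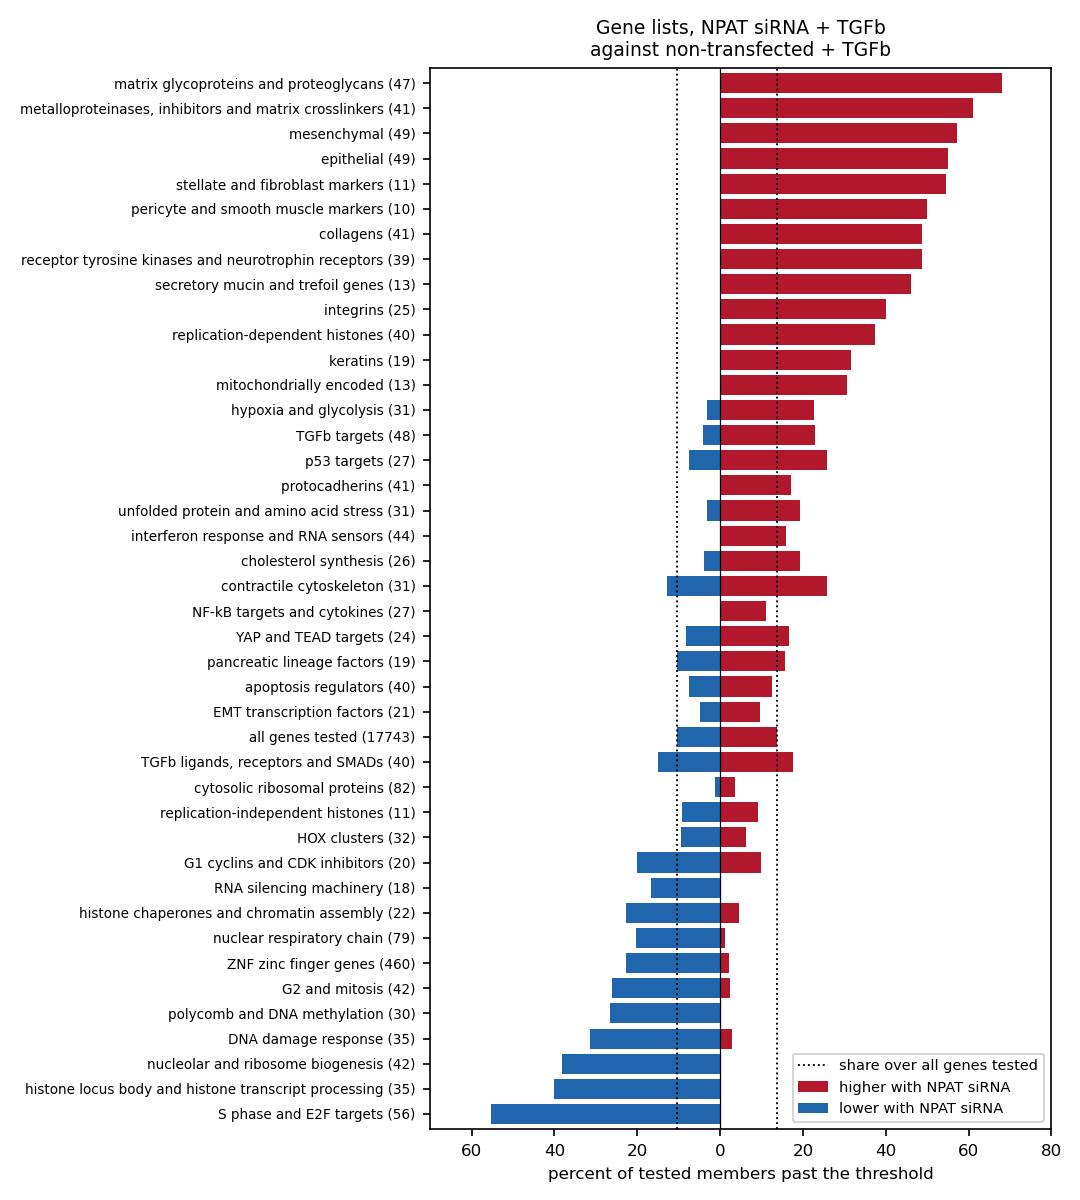
Percent of tested members that were higher (right) or lower (left) with NPAT siRNA and TGFb, for lists with at least 10 tested members; the dotted lines give 13.7% higher and 10.3% lower over all genes. Matrix glycoprotein genes (32 of 47 higher) and S phase genes (31 of 56 lower) lie far from the lines, and ribosomal protein genes (3 of 82 higher, 1 lower) lie near 0.

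Genes of the TGFb pathway gave rises and falls, beside 13.7% higher and 10.3% lower over all tested genes. Of 48 tested TGFb target genes 11 rose and 2 fell, with a median log2 fold change of 0.35, and 5 rose without non-transfected + TGFb replicate 2 (6 or 7 without any other library). Of 40 genes of TGFb family ligands, receptors and SMADs 7 rose and 6 fell, which became 3 and 1 without non-transfected + TGFb replicate 2. FST, an extracellular antagonist of activins, went from 0.436 and 0.647 to 4.43 and 4.71 CPM, and CHRD, an antagonist of BMPs, had a log2 fold change of 1.69. Genes that TGFb raised in both FLASH siRNA and SLBP siRNA cells, a choice that uses none of the 4 libraries compared, numbered 524. Of these 169 (32.3%) were higher and 49 (9.35%) lower with NPAT siRNA than in control cells, with a median of 0.276. Of the 96 genes that TGFb lowered in both, 29 (30.2%) were higher and 2 (2.08%) lower, with a median of 0.329.

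In most stress and signalling lists the shares called were near or below those of all genes. Of 44 tested interferon genes 7 rose and 0 fell, but 0 rose without non-transfected + TGFb replicate 2, and each list in this paragraph that had 4 or more calls in 1 direction had fewer with at least 1 of the 4 libraries left out. Of 31 genes of the unfolded protein response 6 rose and 1 fell, of 26 cholesterol genes 5 and 1, of 31 hypoxia genes 7 and 1, of 40 apoptosis genes 5 and 3, of 27 NF-kB targets and cytokines 3 and 0 and of 24 YAP targets 4 and 2. CA12, a carbonic anhydrase gene raised by hypoxia in many cells, went from 0.317 and 0.180 to 3.93 and 5.48 CPM, and CASP1, the inflammatory caspase gene, had a log2 fold change of 3.41. Of 18 genes of RNA silencing 0 rose and 3 fell, among them DGCR8 of the microRNA processor (-0.68) and AGO2, the slicer (-0.47). Of 19 pancreatic transcription factors 3 rose and 2 fell, of 32 HOX genes 2 and 3, and of 20 G1 genes 2 and 4. Of 41 protocadherin genes 7 rose and 0 fell. Of these 41, 5 were higher than in each of the 3 other TGFb groups, beside 0.919% of all genes. Exons of several protocadherin genes overlap, so their reads may not be separable.

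Against the other siRNAs given with TGFb, a comparison that shares the NPAT siRNA libraries with the one above, 2411 genes (13.6%) differed from FLASH siRNA, 799 higher and 1612 lower, and 2195 (12.4%) from SLBP siRNA, 1023 higher and 1172 lower. The first count ranged from 363 (without FLASH siRNA + TGFb replicate 2) to 1591 and the second from 592 (without NPAT siRNA + TGFb replicate 2) to 1249 when 1 library was left out. DHRS2, a mitochondrial reductase gene, was at 0.951 and 0.790 CPM in control cells, 11.9 and 8.02 CPM with NPAT siRNA, 138 and 174 CPM with FLASH siRNA and 610.4 and 517 CPM with SLBP siRNA. NPAT siRNA stood between the control cells and the other siRNAs: its log2 fold change against control cells was 3.51 (edgeR adjusted p = 0.00644, which no longer passed when non-transfected + TGFb replicate 2 was left out), and its log2 difference was -3.98 from FLASH siRNA and -5.83 from SLBP siRNA.

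Genes that NPAT siRNA took past each of the 3 other TGFb groups numbered 163 higher (0.919%) and 244 lower (1.38%). The lower ones held NPAT, NPM1, MAZ and GXYLT1, whose values are given above. Among the higher ones, BGN, the matrix proteoglycan biglycan, was at 31.9 and 31.3 CPM with NPAT siRNA, 10.3 and 7.11 CPM in control cells, 14.3 and 11.6 CPM with FLASH siRNA and 9.37 and 7.90 CPM with SLBP siRNA. SUSD2, a membrane protein of mesenchymal stem cells, was at 9.02 and 11.8 CPM, 2.14 and 1.87 CPM, 5.59 and 4.92 CPM and 3.64 and 4.15 CPM in the same order. CACNA1D, a calcium channel subunit gene, was at 32.3 and 49.2 CPM, 12.6 and 13.3 CPM, 17.5 and 12.8 CPM and 9.96 and 9.04 CPM. For each the NPAT siRNA libraries were above the other 6. Exons of CACNA1D overlap on the opposite strand those of CHDH, which had a mean of 12.2 CPM over the NPAT siRNA and control libraries with TGFb. LOXL2, which crosslinks collagen and shares exon bases with a neighbour, was at 182 and 176 CPM with NPAT siRNA and 94.1 and 77.1 CPM in control cells. Without NPAT siRNA + TGFb replicate 1 the counts were 113 higher and 190 lower, and without replicate 2 they were 15 and 26. They were 295 and 279 without a filter and 241 and 299 by DESeq2.

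The response to the siRNA with TGFb was set beside the response without it, a comparison of 4 other libraries. Without TGFb 5724 genes (32.3%) passed, 3357 higher (18.9%) and 2367 lower (13.3%). Of these, 3498 were called in the same direction in both conditions, which is 81.9% of the calls with TGFb and 61.1% of those without, and 2 were called in opposite directions. Across the 17743 genes, which are not independent replicates, the log2 fold changes had Pearson's r = 0.793 and Spearman's rho = 0.831. Over genes of at least 1 CPM r was 0.848, with a slope of 0.772 for the fold change with TGFb on that without. The same correlation was 0.703 for FLASH siRNA and 0.618 for SLBP siRNA without TGFb. Of the 40 replication-dependent histone genes 24 rose and 0 fell without TGFb.

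The difference between the 2 responses was tested as an interaction, and 8 genes (0.0451%) passed, all with a lower log2 fold change under TGFb, while 569 genes had an unadjusted p under 0.05. COL5A1, a fibrillar collagen chain, went from 1.32 and 1.41 to 7.66 and 7.40 CPM without TGFb. With TGFb it went from 44.3 and 37.7 to 58.4 and 47.7 CPM, which did not pass (log2 fold change 0.37, edgeR adjusted p = 0.0557). By DESeq2 that change passed (adjusted p = 0.039). The interaction for COL5A1 was -2.09 on the log2 scale (SE 0.219, edgeR adjusted p = 0.00349). TGFBI, a matrix protein gene named for its response to TGFb, went from 129 and 136 to 414 and 413 CPM without TGFb and from 1257 and 1098 to 1738 and 1357 CPM with it (interaction -1.25, SE 0.188, edgeR adjusted p = 0.0457). In both genes the control cells were higher with TGFb than without it, and higher than the siRNA cells without TGFb. Others were CYP24A1, DACT1, IGF2, NKAIN4 and TMEM92, and leaving out 1 library gave 1 (without non-transfected replicate 1) to 7 calls.

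**Figure D5:**
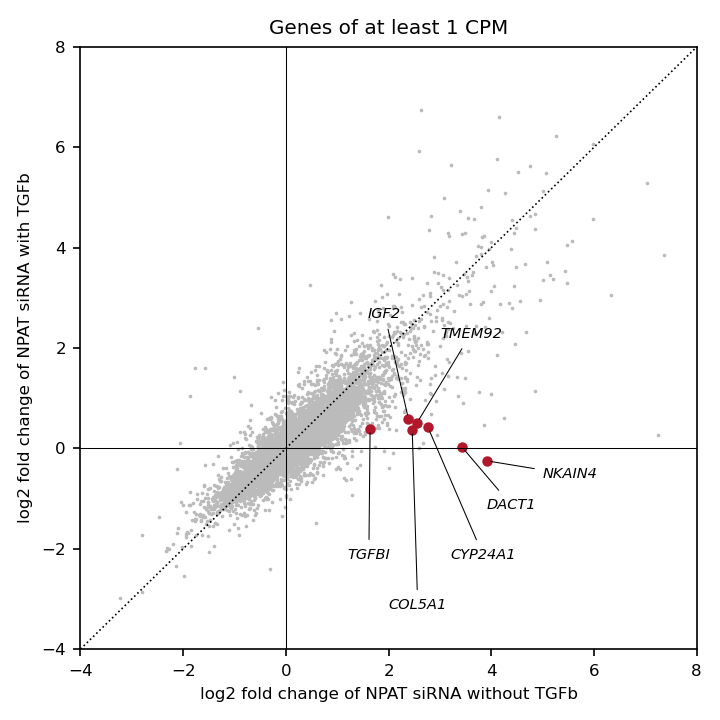
Log2 fold change of NPAT siRNA over non-transfected cells without TGFb (horizontal axis) and with TGFb (vertical axis) for the 13859 genes with a mean of at least 1 CPM; the dotted line marks equal changes, the red points are 7 genes that passed the interaction test, and 9 points lie beyond the axes. The cloud follows the diagonal with a slope of 0.772, and the 7 red points lie below it.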

How the data were processed

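RNA of PANC-1 cells was purified with RNeasy columns and made into libraries with the TruSeq Stranded mRNA kit, per the labels' protocols. The submitters' processing notes name STAR 2.4.2a, RSEM 1.2.31 and GRCh38.p10, without roles. The deposited table holds expected counts for 58219 genes, in which reads that match several genes are shared among them. It also holds the authors' TPM values, which are scaled per length. These were used here only for levels of histone genes and of the markers MCAM and CD68. A further 48 columns were not used.

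Expected counts were rounded. Of the genes, 26056 had no count. The fit used all 16 libraries with 1 mean per group (8 residual degrees of freedom), TMM factors, the filterByExpr filter of edgeR 4.0.16 (R 4.3.3) and its quasi-likelihood F test, with Benjamini-Hochberg adjustment over 17743 genes and a threshold of 0.05, and was tested on simulated data. Alternatives were DESeq2 1.42.0, its size factors, other filters, a replicate block, the groups compared alone, mitochondrial genes left out, and each library left out. Lists were also counted among members with a mean of at least 1 CPM over the 4 libraries compared, a setting added after seeing the data. Floors are 3 counts over a group and cover counting error only. Each SE is the absolute log2 fold change divided by the square root of its F statistic, and was not estimated separately. Positions are from GENCODE release 29.

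Lists (46) and comparisons were chosen with earlier results of these data known. Genes were named by rule: the genes silenced, 10 fixed genes of the transition and S phase, the 15 highest and 15 lowest changes among called genes of at least 5 CPM without overlap (8 and 8 in other comparisons), up to 4 of each list, the 5 most abundant histone genes and the 10 largest differences in CPM. DACT1, MCM6, KRT8, KRT18, H2AFX and HIST2H4A were named after their values were seen. A further rule was also set after values were seen. It took genes of at least 5 CPM past each of the other TGFb groups, ranked by their smallest change. Some genes that met the rule are not reported here.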

Additional observations from a re-analysis of the deposited data

Results flagged for a closer look

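The 7 genes whose response to NPAT siRNA differed between cells with and without TGFb, of those reported, are given here because the difference itself passed the test of the interaction (edgeR, adjusted over 17743 genes). The interaction is the log2 fold change with TGFb minus that without, and it was -4.157 for NKAIN4, -3.401 for DACT1, -2.345 for CYP24A1, -2.089 for COL5A1, -2.044 for TMEM92, -1.798 for IGF2 and -1.246 for TGFBI.

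NKAIN4, a membrane protein gene that interacts with the sodium pump, was at 0.0714 and 0.19 CPM in non-transfected cells and 1.81 and 2.21 CPM with NPAT siRNA without TGFb. With TGFb it was at 29.6 and 24.5 CPM in non-transfected cells and 25.5 and 20.1 CPM with NPAT siRNA, so the siRNA libraries were higher without TGFb and the groups overlapped with it (edgeR adjusted p = 0.00349 for the interaction). CYP24A1, which inactivates vitamin D, was at 0.643 and 0.647 CPM without and 5.36 and 3.46 CPM with the siRNA in the absence of TGFb. With TGFb it was at 9.87 and 12.6 CPM in control cells and 16.5 and 13.6 CPM with the siRNA (edgeR adjusted p = 0.0423). IGF2, a growth factor gene, was at 6.39 and 5.98 CPM without and 31.04 and 33.7 CPM with the siRNA in the absence of TGFb. With TGFb it was at 41.8 and 36.0 CPM and 66.5 and 50.6 CPM (edgeR adjusted p = 0.00746). TMEM92, a membrane protein gene, was at 1.14 and 1.104 CPM and 6.49 and 6.77 CPM without TGFb, and at 17.0 and 18.2 CPM and 26.6 and 23.7 CPM with it. In CYP24A1, IGF2 and TMEM92 both siRNA libraries were above both controls in each condition. With TGFb, however, CYP24A1 did not pass against control cells (log2 fold change 0.42). IGF2 passed with TGFb (log2 fold change 0.59), a call that did not hold with some libraries left out (0.40 to 0.78). DACT1, a modulator of Wnt and TGFb signalling, was at 6.78 and 7.73 CPM in control cells and 7.40 and 7.39 CPM with the siRNA when TGFb was given, and these groups overlapped. Exons of NKAIN4 overlap those of a neighbour.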

How the results depend on the processing

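The count of genes changed by NPAT siRNA with TGFb was 6712 with the replicate block and 1553 to 3061 with 1 library left out; RLE size factors, no filter, a 1 CPM minimum, DESeq2, mitochondrial genes left out and the groups compared alone each kept it within 1.5 times of 4271. The interaction count was 125 without a filter, 26 by DESeq2, 20 with the replicate block, 1 from the groups compared alone and 1 to 7 with 1 library left out. Against FLASH siRNA the replicate block gave 4652 and leaving out 1 library 363 to 1591, and against SLBP siRNA 4188 and 592 to 1249. Without TGFb the groups compared alone gave 3303 and leaving out 1 library 2999 to 4529. Deviations of same-numbered libraries from their group means correlated at 0.525 between NPAT siRNA and control cells with TGFb, 0.679 without, 0.279 between NPAT and FLASH siRNA and 0.57 between NPAT and SLBP siRNA, over 11349 genes, but with 2 pairs and no label that ties them the number was not taken as a pairing. With the replicate block 455 genes were higher and 520 lower than in each other TGFb group, and CDH2, HIST1H2BD, ZEB1 and CASP8AP2 passed (edgeR adjusted p = 0.00453, 0.0117, 0.0143 and 0.0145). With 1 library left out, the log2 fold change reversed for HIST1H2AC (range -0.149 to 0.246, with -0.00326 without NPAT siRNA + TGFb replicate 2), VIM (-0.129 to 0.0894, with 0.0692 without NPAT siRNA + TGFb replicate 2), MSC (-0.337 to 0.685) and RP11-844P9.5 (-0.297 to 1.68, with -0.0763 without NPAT siRNA + TGFb replicate 1). The cause was not tested, other than that fits without a library hold fewer samples. Of 231 named genes past the threshold, 121 kept direction and call in each of the 11 alternatives that held the gene. Some genes were absent from part of the alternatives: CRB3, MMP3 and MT-ND5 were held by 10. The other 110 lost the call with 1 library left out. Genes with few counts set the limit of depth: a fold against a silent control is a lower bound.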
